A study of Homo sapiens with 18 samples.

Results

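The genes that build, cut and bind hyaluronan were followed in MDA-MB-231, a human triple-negative breast cancer cell line of mesenchymal character, after knockdown of RagC. The 9 genes were HAS2, HAS3, CEMIP, CEMIP2, HYAL1, HYAL2, HYAL3, HMMR and CD44, taken as the rows of the count table whose Ensembl identifiers carry these symbols, 9 of 57820 genes listed. They were chosen by the HAS2 counts, after its level had been seen to differ between the RagC siRNAs, so HAS2 is described here without a test, and so is the comparison of the siRNAs with each other for all 9 genes. The other 8 were tested against the control siRNA within a fit across all 15307 genes with enough counts.

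Cells received siRagC1 or siRagC2, independent siRNAs against RagC, or the control siRNA siCtrl, by lipofection for 72 hours, and each group had 6 libraries, 18 in all. The siCtrl cells carry the genotype label WT, and all groups were grown in L-15 medium with serum and L-glutamine. RagC, encoded by RRAGC, is one of the Rag GTPases that bring mTORC1, the nutrient-sensing growth kinase, to the lysosome, and the study silenced it to learn which genes change when mTORC1 is repressed. The labels number the libraries as biological replicates but do not state what separates one from another (a culture, a passage or a day), and a p-value here therefore reflects sample-to-sample spread that may be technical. Library codes divide them into series D1103 (replicates 1 and 2 of each group) and D1221 (replicates 3 to 6), and the fit held a term for the series.

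Hyaluronan is a long, unbranched sugar polymer that hyaluronan synthases spin out through the plasma membrane from UDP-glucuronic acid and UDP-N-acetylglucosamine. It is cut by CEMIP outside the cell and by hyaluronidases of the HYAL family, and the fragments end in lysosomes, where exoglycosidases take them apart. CD44 is its main surface receptor, and breast cancer cells of the basal and mesenchymal type are known for a hyaluronan coat, high CD44 and HAS2 as their main synthase.

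The libraries held 22.9 to 55.4 M counts with siRagC1, 14.8 to 71.6 M with siRagC2 and 18.95 to 44.3 M with siCtrl. RRAGC (ENSG00000116954) averaged 23.9 ± 7.58 CPM with siRagC1 and 27.8 ± 8.30 CPM with siRagC2, against 62.4 ± 2.75 CPM with siCtrl (CPM, counts scaled to a common library size with TMM factors; SD, n = 6 each), and all siRagC libraries lay below all siCtrl libraries. The mesenchymal markers of the line (VIM, ZEB1, AXL, CAV1, FN1, SNAI2) were all over 1 CPM, with a summed level of 6440 to 8445 CPM with siRagC1, 6613 to 8187 with siRagC2 and 6434 to 8475 with siCtrl. With 18 libraries 1 of the 6 was lower with siRagC1 and 1 with siRagC2 (edgeR, adjusted p under 0.05), against 0.627% and 1.36% of all genes tested. Both counts were the same without replicate 6, against 3.46% and 3.17%. Of 7 luminal markers 4 were over 1 CPM on average over the 18 libraries, ERBB3 (17.3 CPM), EPCAM (16.4), GATA3 (8.42) and CDH1 (1.13), while PGR (0.0798), ESR1 (0.0462) and FOXA1 (0.0316) were near 0. Of 5 blood and 2 endothelial markers 0 were over 1 CPM.

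The libraries labelled siRagC1 replicate 6 and siRagC2 replicate 6 went against the other numbers. In numbers 1 to 5, 518 genes other than HAS2 differed between the siRNAs (edgeR, adjusted p under 0.05), and between the 2 libraries numbered 6 the difference had the opposite sign for 461 of them (89.0%). In each of the numbers 1 to 5, from which those genes were chosen, 1 to 8 had the opposite sign. RRAGC was low in both libraries, at 31.9 CPM in siRagC1 replicate 6 and 21.8 CPM in siRagC2 replicate 6, against 61.1 CPM in siCtrl replicate 6. Its difference between the siRNAs also changed sign. In log2 CPM, siRagC1 minus siRagC2 was -0.04, -0.80, -0.36, -0.26 and -0.48 in numbers 1 to 5 and 0.54 in number 6. Whether the labels of these libraries or something else set this was not tested. The differences from siCtrl of the 9 genes, and of the other genes named as called, are therefore given with all 18 libraries and with the 15 that remain without replicate 6 of every group. Because number 6 was singled out from these same data, every p-value without it follows that choice.

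Promoter sequences of 8 of the 9 genes were matched in RefSeq (GRCh38.p14); HAS2 had none. They are shown for CEMIP2, CEMIP and HYAL2, called with siRagC2 with or without replicate 6, and for HAS3, which holds the letters searched for. HYAL3, also called with siRagC2 without replicate 6, was searched but is not printed. The letters were chosen because TFEB, the transcription factor in the title of the study, recognises elements built around CACGTG. The letters CACGTG, which read the same on both strands, were searched in windows of 300 bases, from 250 before to 50 after the RefSeq start. They stand in 7.26% of all 35116 windows, and the longer TCACGTGA, which contains them, in 0.98%. Of the 8 genes only HAS3 held CACGTG, beginning 66 bases before its start, and none held TCACGTGA. The 250 bases before the start are printed 5′ to 3′ on the gene's strand, with CACGTG in capitals, for HAS3 (chr16:69107290-69107539, plus strand), CEMIP2 (chr9:71768514-71768763, minus strand), CEMIP (chr15:80779120-80779369, plus strand) and HYAL2 (chr3:50322746-50322995, minus strand). A match describes letters in a window and is no evidence of binding, and the lack of one says only that these letters are not in it.
HAS3: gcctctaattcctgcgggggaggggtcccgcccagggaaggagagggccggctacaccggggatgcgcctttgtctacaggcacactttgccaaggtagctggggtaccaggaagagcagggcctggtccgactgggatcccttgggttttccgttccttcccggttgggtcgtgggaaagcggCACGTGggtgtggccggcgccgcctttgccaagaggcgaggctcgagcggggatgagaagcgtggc
CEMIP2: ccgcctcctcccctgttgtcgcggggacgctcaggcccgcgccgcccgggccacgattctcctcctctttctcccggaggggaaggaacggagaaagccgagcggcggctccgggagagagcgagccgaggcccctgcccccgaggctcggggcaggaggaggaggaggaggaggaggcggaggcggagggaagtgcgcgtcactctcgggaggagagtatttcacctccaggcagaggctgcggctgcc
CEMIP: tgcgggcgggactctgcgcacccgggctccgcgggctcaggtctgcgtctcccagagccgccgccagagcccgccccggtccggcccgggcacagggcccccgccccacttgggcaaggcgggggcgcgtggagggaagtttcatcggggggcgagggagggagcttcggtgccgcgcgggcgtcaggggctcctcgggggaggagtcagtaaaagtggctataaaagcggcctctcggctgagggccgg
HYAL2: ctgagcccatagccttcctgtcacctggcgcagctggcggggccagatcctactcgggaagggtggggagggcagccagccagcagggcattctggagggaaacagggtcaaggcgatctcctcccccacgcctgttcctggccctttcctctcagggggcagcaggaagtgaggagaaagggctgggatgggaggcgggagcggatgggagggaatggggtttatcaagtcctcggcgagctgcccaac

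Per kilobase of exon (GENCODE 29 lengths), CD44 stood highest in the siCtrl cells, at 92.5 ± 10.2 CPM per kb (SD, n = 6), and HAS2 came next at 10.9 ± 0.989. CEMIP2 followed at 7.65 ± 0.409, HYAL2 at 6.40 ± 1.15, CEMIP at 4.62 ± 0.432 and HMMR at 3.35 ± 0.956 CPM per kb. HYAL3 had 1.98 ± 0.471, HAS3 1.43 ± 0.113 and HYAL1 0.209 ± 0.0897 CPM per kb. In this order CD44, HAS2 and CEMIP2 did not overlap in range over the 6 siCtrl libraries, and neither did HAS3 and HYAL1, whereas every pair of neighbours from CEMIP2 down to HAS3 overlapped. HAS2 was the synthase with the higher level: HAS3 was lower per kilobase, and HAS1, the remaining synthase, had 58 counts in all 18 libraries together and was not tested.

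HAS2 (ENSG00000170961), which makes hyaluronan of high molecular mass, had 43.7, 50.2, 49.4, 50.2, 44.3 and 35.1 CPM in siRagC1 replicates 1 to 6. With siRagC2 it had 26.0, 39.6, 38.9, 31.8, 29.02 and 45.9 CPM, against 42.04, 43.3, 44.3, 49.9, 42.5 and 51.7 CPM with siCtrl. Replicate 6 was the lowest siRagC1 library and the highest siRagC2 library, and among replicates 1 to 5 every siRagC2 library lay below every siRagC1 and every siCtrl library. Among those replicates 1.59% of all genes tested were lower in every siRagC2 than in every siCtrl library, a share from which nothing is read for HAS2, since its values chose the genes.

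The HAS2 means were 45.5 ± 5.87 CPM with siRagC1, 35.2 ± 7.50 with siRagC2 and 45.6 ± 4.15 with siCtrl (SD, n = 6 each). The siRagC1 and siCtrl means lay closer together than the SD of either, while the siRagC2 mean was below both by more than the SD of each group. The log2 difference from siCtrl was -0.00 ± 0.11 (SE) with siRagC1 and -0.37 ± 0.11 with siRagC2 over 18 libraries, and 0.10 ± 0.10 and -0.41 ± 0.10 without replicate 6. Within the code series, the siRagC2 difference was -0.36 ± 0.22 in D1103 and -0.37 ± 0.13 in D1221, or -0.44 ± 0.10 in D1221 without replicate 6. In bulk RNA, fewer cells with a transcript and less of it per cell cannot be told apart, here or in the genes that follow. HAS2-AS1, the antisense gene, shares 4.8% of the HAS2 exon bases and had 896 counts in all libraries together, against 23841 for HAS2.

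HAS3 (ENSG00000103044), a synthase whose product is shorter, ranged from 6.65 to 9.91 CPM with siRagC1 (median 8.16), from 5.95 to 9.92 with siRagC2 (median 7.33) and from 6.65 to 8.11 with siCtrl (median 7.87). The groups overlapped, and the 2 D1103 libraries were the highest of each siRagC group. The log2 difference from siCtrl was 0.15 ± 0.08 with siRagC1 (95% interval -0.02 to 0.32, edgeR adjusted p = 0.371) and 0.07 ± 0.08 with siRagC2 (-0.10 to 0.24, adjusted p = 0.733). Without replicate 6 it was 0.16 ± 0.09 and 0.11 ± 0.09 (adjusted p = 0.271 and 0.519). In D1103 alone the siRagC2 difference was 0.31 ± 0.12, and in D1221 alone -0.08 ± 0.11, and the difference between the series was not tested. CHTF8 on the opposite strand shares 6.9% of the HAS3 exon bases, and because no source used here states whether counting used strand, the HAS3 counts may hold reads of CHTF8.

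**Figure D1:**
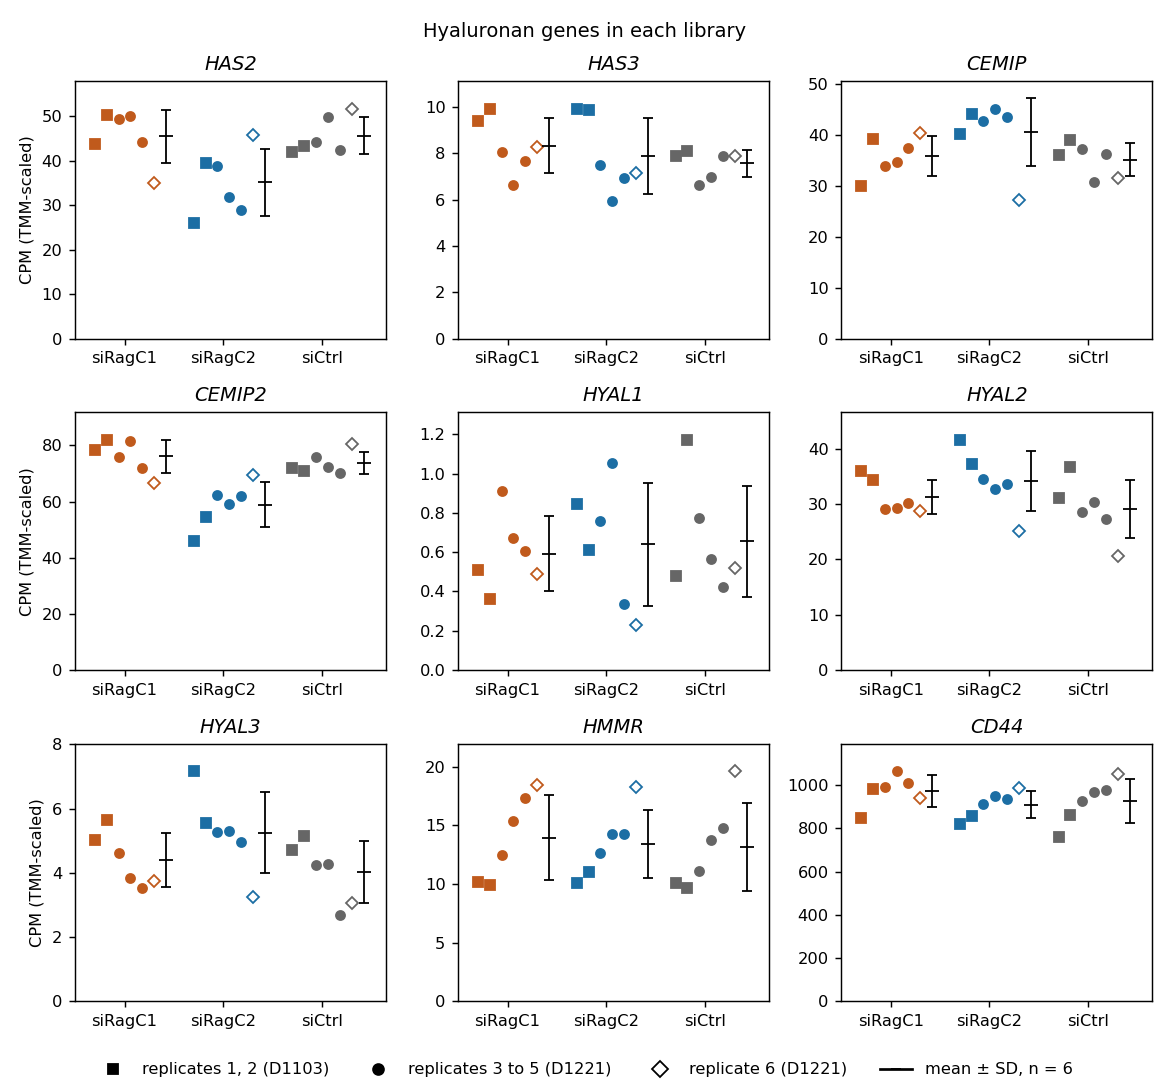
Level of the 9 hyaluronan genes in each library, in CPM scaled by TMM (vertical axes from 0), for siRagC1, siRagC2 and siCtrl; squares are replicates 1 and 2 (series D1103), circles replicates 3 to 5 and open diamonds replicate 6 (series D1221), with the mean ± SD of all 6 beside them. HAS2 and CEMIP2 are lower with siRagC2 in replicates 1 to 5, and the siRagC2 replicate 6 diamond lies with the siCtrl points for HAS2 and below all other siRagC2 points for CEMIP, at 27.3 CPM.

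Among the genes that cut hyaluronan, CEMIP2 fell with siRagC2. It was the only member called with all 18 libraries in the main edgeR fit, which held no replicate block. With siRagC2 1 of the 8 tested genes passed an adjusted p of 0.05 (0 higher, 1 lower), against 3.23% of all 15307 genes (1.87% higher and 1.36% lower). DESeq2 called 2 members with siRagC2, CEMIP2 and HYAL3, and 1005 of all genes. At an unadjusted edgeR p under 0.05 there were 4 of 8, against 2833 of the 15307 genes. With siRagC1 0 of 8 passed by edgeR, by DESeq2 or at an unadjusted p under 0.05, against 2.04% of all genes by edgeR (1.41% higher and 0.627% lower). DESeq2 called 778 of all genes with siRagC1, and 2613 had an unadjusted edgeR p under 0.05. Without replicate 6 the edgeR count at an adjusted p of 0.05 was 4 of 8 with siRagC2, against 6.64% of 15481 genes (3.48% higher and 3.17% lower). CEMIP, HYAL2 and HYAL3 were higher and CEMIP2 lower. Number 6 was left out after its values were seen, so these calls are no independent support. With siRagC1 the count without replicate 6 remained 0 of 8, against 7.61% of all genes (4.15% higher and 3.46% lower). At an unadjusted p under 0.05 there was 1. The median log2 difference of the 9 genes was 0.08 with siRagC1 and 0.03 with siRagC2, beside 0.0051 and 0.0047 over all genes tested. With siRagC1, 0 of the 9 genes lay wholly above or wholly below siCtrl, as 0.516% and 0.314% of all genes did over 18 libraries and 2.04% and 1.67% without replicate 6. Same-numbered siRagC2 and siCtrl libraries deviated together from their group means. They also share a code series, so this cannot show pairing beyond the series. With the number as a block, edgeR called 3 members with siRagC2, against 6.44% of all genes (3.66% higher and 2.78% lower). They were CEMIP2 (-0.33, adjusted p = 0.0171), HYAL2 (0.23, adjusted p = 0.0387) and HYAL3 (0.37, adjusted p = 0.0419).

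CEMIP2 (ENSG00000135048, also TMEM2) encodes a transmembrane protein described in mouse as a cell surface hyaluronidase. It had 78.4, 82.0, 76.0, 81.7, 72.1 and 66.6 CPM in siRagC1 replicates 1 to 6. With siRagC2 it had 45.9, 54.4, 62.3, 59.1, 61.9 and 69.6 CPM, against 72.1, 70.8, 75.8, 72.5, 70.0 and 80.5 CPM with siCtrl. Every siRagC2 library lay below every siCtrl library, which held for 0.542% of all genes tested, while the siRagC1 and siCtrl libraries overlapped.

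The log2 difference of CEMIP2 from siCtrl was -0.33 ± 0.07 with siRagC2, a 0.796-fold level (edgeR, adjusted p = 0.0152), and it was lower in all 6 numbers. With siRagC1 it was 0.05 ± 0.07 (-0.10 to 0.20, adjusted p = 0.771). Without replicate 6 the values were -0.36 ± 0.06 with siRagC2 (adjusted p = 0.00144) and 0.11 ± 0.06 with siRagC1 (adjusted p = 0.282). Within series D1103 alone, siRagC2 gave -0.51 ± 0.08 (adjusted p = 0.000578). In D1221 alone it gave -0.24 ± 0.07 (adjusted p = 0.316) and, without replicate 6, -0.25 ± 0.06 (adjusted p = 0.132), so the call did not hold there. It was lost without the series term (-0.32, adjusted p = 0.0903) and without replicate number 1 (-0.27, adjusted p = 0.0970), 2 (-0.32, adjusted p = 0.0610) or 4 (-0.34, adjusted p = 0.0511), and no single library ended it.

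CEMIP (ENSG00000103888), the secreted protein that cleaves hyaluronan outside the lysosome, had 29.9, 39.2, 34.0, 34.7, 37.5 and 40.4 CPM in siRagC1 replicates 1 to 6. With siRagC2 it had 40.3, 44.2, 42.8, 45.2, 43.6 and 27.3 CPM, against 36.0, 39.1, 37.3, 30.9, 36.3 and 31.5 CPM with siCtrl. In replicates 1 to 5 every siRagC2 library was above every siCtrl library, as were 1.80% of all genes tested, whereas siRagC2 replicate 6 was below all 6.

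The log2 difference of CEMIP from siCtrl was 0.21 ± 0.10 with siRagC2 over 18 libraries (0.00 to 0.41, adjusted p = 0.269) and 0.26 ± 0.07 without replicate 6 (adjusted p = 0.0253). Leaving out siRagC2 replicate 6 by itself raised the count of members called to 4. With siRagC1 the difference was 0.03 ± 0.10 (-0.18 to 0.23, adjusted p = 0.922) and -0.05 ± 0.07 without replicate 6 (adjusted p = 0.733). By series, the siRagC2 difference was 0.17 ± 0.11 in D1103 (edgeR adjusted p = 0.433) and 0.23 ± 0.13 in D1221 (adjusted p = 0.597). In D1221 without replicate 6 it was 0.33 ± 0.07 (adjusted p = 0.120). MESD on the opposite strand shares 2.94% of the CEMIP exon bases.

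HYAL2 (ENSG00000068001), a hyaluronidase anchored to the cell surface, ranged from 28.8 to 36.0 CPM with siRagC1 (median 29.7), from 25.1 to 41.6 with siRagC2 (median 34.1) and from 20.7 to 36.6 with siCtrl (median 29.4). Replicate 6 was the lowest library of each group, and the groups overlapped, yet the siRagC2 library exceeded the siCtrl library of its number in all 6 numbers. The log2 difference was 0.23 ± 0.08 with siRagC2 (0.07 to 0.40, adjusted p = 0.108) and 0.10 ± 0.08 with siRagC1 (-0.06 to 0.27, adjusted p = 0.533). Without replicate 6 it was 0.22 ± 0.05 with siRagC2 (adjusted p = 0.0124) and 0.04 ± 0.05 with siRagC1 (adjusted p = 0.680). With the replicate number as a block, edgeR called HYAL2 with siRagC2 over 18 libraries (adjusted p = 0.0387). Neither series alone gave a call with siRagC2. The difference was 0.21 ± 0.09 in D1103 (edgeR adjusted p = 0.161) and 0.24 ± 0.11 in D1221 (adjusted p = 0.509). In D1221 without replicate 6 it was 0.23 ± 0.06 (adjusted p = 0.216). TUSC2, on the same strand, shares 11.2% of the HYAL2 exon bases, so the 2 counts could not be fully separated.

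HYAL3 (ENSG00000186792), a hyaluronidase family member whose own activity is debated, ranged from 3.51 to 5.65 CPM with siRagC1 (median 4.23), from 3.24 to 7.17 with siRagC2 (median 5.30) and from 2.68 to 5.13 with siCtrl (median 4.26). The groups overlapped, and again the siRagC2 library was above the siCtrl library in all 6 numbers. The log2 difference was 0.39 ± 0.13 with siRagC2 (0.13 to 0.65, adjusted p = 0.0905) and 0.13 ± 0.13 with siRagC1 (-0.13 to 0.39, adjusted p = 0.643). Without replicate 6 it was 0.41 ± 0.12 with siRagC2 (adjusted p = 0.0358) and 0.11 ± 0.12 with siRagC1 (adjusted p = 0.635). Over 18 libraries HYAL3 was called with siRagC2 by DESeq2, and by edgeR with the replicate number as a block (adjusted p = 0.0419). Neither series alone gave a call with siRagC2. The difference was 0.35 ± 0.16 in D1103 (edgeR adjusted p = 0.209) and 0.42 ± 0.18 in D1221 (adjusted p = 0.492). In D1221 without replicate 6 it was 0.47 ± 0.17 (adjusted p = 0.411). NAA80 shares 12.2% and IFRD2 2.12% of the HYAL3 exon bases on the same strand, and IFRD2 had 61731 counts in all libraries together, against 2680 for HYAL3, so its counts are uncertain.

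HYAL1 (ENSG00000114378), the lysosomal hyaluronidase, was at the edge of detection, with 0.361 to 0.914 CPM with siRagC1, 0.231 to 1.05 with siRagC2 and 0.420 to 1.17 with siCtrl. Its lowest library held 4 counts, for which the exact Poisson interval of 95% runs from 1.09 to 10.2 counts and covers counting error only. The log2 difference was -0.20 ± 0.31 with siRagC1 (-0.84 to 0.44, adjusted p = 0.791) and -0.04 ± 0.31 with siRagC2 (-0.68 to 0.60, adjusted p = 0.968), and differences within these intervals were not detectable here. Without replicate 6 the values were -0.23 ± 0.31 and -0.00 ± 0.29 (adjusted p = 0.708 and 0.998).

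**Figure D2:**
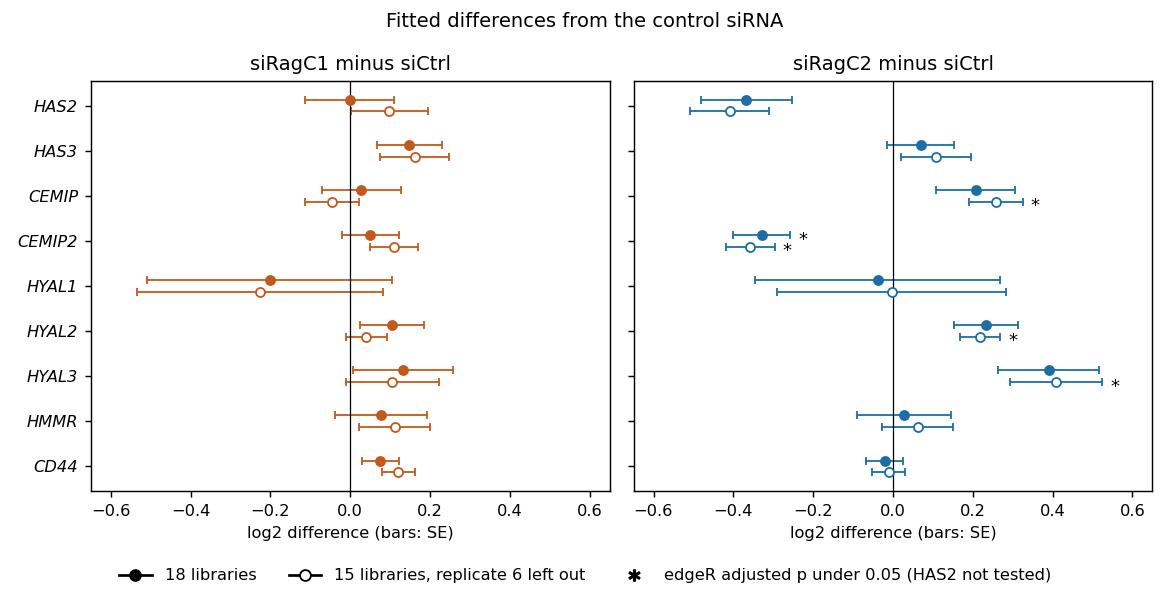
Fitted log2 difference of each hyaluronan gene from siCtrl (horizontal axis) with siRagC1 (left) and siRagC2 (right); filled points are 18 libraries, open points the 15 without replicate 6, bars are ± SE and asterisks mark an edgeR adjusted p under 0.05, with HAS2 not tested. CEMIP2 is marked in both fits with siRagC2 (-0.33 and -0.36), and CEMIP, HYAL2 and HYAL3 in the fit without replicate 6.

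CD44 (ENSG00000026508), the receptor that links hyaluronan to the cytoskeleton, was the most abundant of the 9 genes and moved little. It ranged from 847 to 1065 CPM with siRagC1 (median 987), from 819 to 989 with siRagC2 (median 925) and from 761 to 1052 with siCtrl (median 949). The groups overlapped, and replicate 1 was the lowest library of each. The log2 difference was 0.08 ± 0.05 with siRagC1 (-0.02 to 0.17, adjusted p = 0.422) and -0.02 ± 0.05 with siRagC2 (-0.12 to 0.07, adjusted p = 0.864). Without replicate 6 it was 0.12 ± 0.04 with siRagC1 (0.03 to 0.21, adjusted p = 0.0771), higher than siCtrl in numbers 1 to 5, and -0.01 ± 0.04 with siRagC2 (adjusted p = 0.924).

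HMMR (ENSG00000072571), which encodes RHAMM, a hyaluronan-binding protein that also works at the mitotic spindle, ranged from 9.94 to 18.5 CPM with siRagC1 (median 13.9), from 10.1 to 18.3 with siRagC2 (median 13.5) and from 9.66 to 19.6 with siCtrl (median 12.4). Within each group both D1103 libraries were below all D1221 libraries and replicate 6 was the highest, while the groups overlapped. The log2 difference was 0.08 ± 0.12 with siRagC1 (-0.17 to 0.32, adjusted p = 0.791) and 0.03 ± 0.12 with siRagC2 (-0.22 to 0.27, adjusted p = 0.933), and without replicate 6 it was 0.11 ± 0.09 and 0.06 ± 0.09 (adjusted p = 0.480 and 0.742). Of the 18 mitosis genes listed beside it, 0 passed with either siRNA by edgeR, by DESeq2 or at an unadjusted p under 0.05, with medians of -0.08 with siRagC1 and -0.03 with siRagC2. Of all genes, 2.04% passed by edgeR with siRagC1 and 3.23% with siRagC2. Without replicate 6, 0 of the 18 passed by edgeR, against 7.61% and 6.64% of all genes. There was 1 at an unadjusted p under 0.05 with siRagC1 and 0 with siRagC2, and the medians of the 18 were -0.07 and -0.00. TOP2A, the topoisomerase of dividing cells, had -0.04 ± 0.09 with siRagC1 and -0.00 ± 0.09 with siRagC2 (adjusted p = 0.867 and 0.994), and MKI67, the Ki-67 antigen, -0.01 ± 0.13 and -0.13 ± 0.13 (adjusted p = 0.976 and 0.663).

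Set against each other, the siRNAs differed in opposite directions among these genes, which is described without a test. The log2 difference of siRagC1 minus siRagC2 was 0.37 ± 0.11 for HAS2, 0.38 ± 0.07 for CEMIP2 and 0.10 ± 0.05 for CD44 over 18 libraries (SE). It was -0.18 ± 0.10 for CEMIP, -0.13 ± 0.08 for HYAL2 and -0.26 ± 0.12 for HYAL3. Without replicate 6 the sizes were larger, at 0.51 ± 0.10 for HAS2, 0.47 ± 0.06 for CEMIP2, 0.13 ± 0.04 for CD44, -0.30 ± 0.07 for CEMIP, -0.18 ± 0.05 for HYAL2 and -0.30 ± 0.11 for HYAL3.

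Number by number, HAS2 differed by 0.75, 0.34, 0.35, 0.66 and 0.61 in numbers 1 to 5 and by -0.39 in number 6. CEMIP2 differed by 0.77, 0.59, 0.29, 0.47 and 0.22, and by -0.06 in number 6. CEMIP ran the other way, with -0.43, -0.17, -0.33, -0.38 and -0.22, and 0.57 in number 6. Of the 6 genes compared here, all had the opposite sign in number 6 to that of their fitted difference, and in numbers 1 to 5 HYAL3 in number 2 (0.03) was the exception to 1 sign per gene. HAS3 (0.08 ± 0.08), HYAL1 (-0.16 ± 0.30) and HMMR (0.05 ± 0.12) differed by about their SE or less. In number 6 HAS3 (0.20) and HMMR (0.02) kept the sign of their fitted difference, and HYAL1 (0.91) had the opposite sign. Over all genes edgeR called 0 between the siRNAs with 18 libraries, with 1187 at an unadjusted p under 0.05, and 519 without replicate 6.

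**Figure D3:**
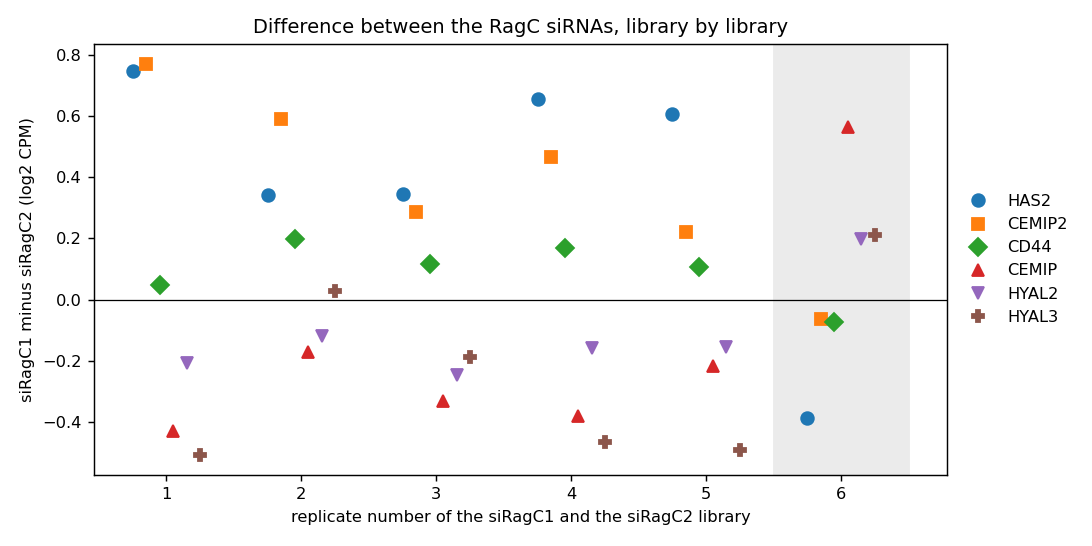
Difference in log2 CPM between the siRagC1 and the siRagC2 library of the same replicate number (vertical axis) for 6 hyaluronan genes, by replicate number, with number 6 shaded. HAS3, HYAL1 and HMMR are not shown. HAS2, CEMIP2 and CD44 lie above 0 and CEMIP and HYAL2 below 0 in numbers 1 to 5, and all change sides in number 6, where HAS2 is at -0.39 and CEMIP at 0.57.

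Over the 18 libraries, with the mean of each code series removed from log2 CPM, HAS2 varied with CEMIP2 (Pearson r = 0.857; 0.863 over 15 libraries) and inversely with CEMIP (-0.636) and HYAL2 (-0.619). HYAL2 and HYAL3 varied together (0.781). These are descriptions: the points are the same libraries, with their depth and siRNA in common, and several of the genes were seen to differ between the siRNAs. Among 10872 genes with a mean of at least 5 CPM, the 3 most like HAS2 were SNHG32 (r = 0.937), a small nucleolar RNA host gene, IGF2BP3 (0.927), an RNA-binding protein, and DUSP6 (0.919), an ERK phosphatase. Those most like CD44 were ITGA6 (0.909) and ITGB1 (0.852), integrin subunits, and TMEM131 (0.861). Those most like HMMR were TM4SF1 (0.904), CCDC14 (0.903) and TOP2A (0.887), which were at 0.871, 0.793 and 0.771 without replicate 6.

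The supply of UDP sugars held called genes in both directions. With siRagC1, 1 of its 10 genes rose and 2 fell, against 1.41% and 0.627% of all genes. With siRagC2, 1 rose and 1 fell, against 1.87% and 1.36%. Both counts were the same without replicate 6, where 4.15% of all genes rose and 3.46% fell with siRagC1, and 3.48% and 3.17% with siRagC2. The list medians over 18 libraries were 0.00 with siRagC1 and -0.01 with siRagC2. GNPNAT1, which acetylates glucosamine-6-phosphate, averaged 155 ± 15.9 CPM with siRagC1 and 153 ± 14.2 with siRagC2, against 172 ± 16.5 with siCtrl (SD, n = 6 each). Its log2 difference was -0.15 ± 0.04 with siRagC1 (adjusted p = 0.0300) and -0.17 ± 0.04 with siRagC2 (adjusted p = 0.0119), and without replicate 6 -0.14 ± 0.04 and -0.15 ± 0.04 (adjusted p = 0.0179 and 0.0122). UAP1, the enzyme that makes UDP-N-acetylglucosamine, averaged 149 ± 22.04 CPM with siRagC1 and 159 ± 10.95 with siRagC2, against 176 ± 16.7 with siCtrl, and fell by 0.25 ± 0.05 on the log2 scale with siRagC1 (adjusted p = 0.0160), with -0.14 ± 0.05 for siRagC2 (adjusted p = 0.136). The UAP1 values without replicate 6 were -0.27 ± 0.04 and -0.09 ± 0.04 (adjusted p = 0.000477 and 0.187). UAP1L1, its paralog, was higher by 0.41 ± 0.10 with each siRNA (adjusted p = 0.0427 and 0.0338), at 61.4 ± 16.4 CPM with siRagC1 and 61.3 ± 14.6 with siRagC2, against 45.8 ± 10.4 with siCtrl, and without replicate 6 the differences were 0.36 ± 0.08 and 0.32 ± 0.08 (adjusted p = 0.0145 and 0.0311).

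Most of these calls were lost when 1 library was left out. The siRagC1 call on GNPNAT1 was lost without siRagC1 replicate 1, 2, 3 or 5 or siCtrl replicate 1, 2 or 4 (adjusted p between 0.0572 and 0.0869), and that on UAP1 without siRagC1 replicate 1 or 2 or siCtrl replicate 1 (0.0519 to 0.0612). The UAP1L1 call was lost with siRagC1 without siRagC1 replicate 1, 2, 3 or 5, siRagC2 replicate 2, 3, 4 or 5, or siCtrl replicate 1, 2 or 5 (0.0526 to 0.128), and with siRagC2 without siRagC2 replicate 1, 2, 3 or 4 or siCtrl replicate 1 or 2 (0.0525 to 0.102). The siRagC2 call on GNPNAT1 was ended by no single library, but was lost without replicate number 1 or 4 (0.0560 to 0.101). Without the series term, in D1221 alone and in D1221 without its number 6, every call on these 3 genes was lost, and both GNPNAT1 calls also in D1103 alone. For the siRagC2 call on GNPNAT1 these settings gave an adjusted p of 0.0887 to 0.443.

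Downstream of the hyaluronidases, HEXA, which encodes an exoglycosidase subunit, rose with siRagC1. It averaged 33.0 ± 2.85 CPM with siRagC1 and 31.0 ± 0.844 with siRagC2, against 28.6 ± 1.91 with siCtrl (SD, n = 6 each). Its log2 difference was 0.21 ± 0.05 with siRagC1 (adjusted p = 0.0351) and 0.12 ± 0.05 with siRagC2 (adjusted p = 0.228), and without replicate 6 it was 0.22 ± 0.05 and 0.09 ± 0.05 (adjusted p = 0.0123 and 0.319). The HEXA call with siRagC1 was lost without siRagC1 replicate 1, 2, 3 or 4 or siCtrl replicate 1, 2 or 5 (adjusted p between 0.0502 and 0.117), and also without the series term and in either series alone. GUSB, a glucuronidase of the same step, had -0.00 ± 0.05 and 0.02 ± 0.05 (adjusted p = 0.986 and 0.869). HYAL4 (80 counts in all libraries together) and SPAM1 (2 counts) had too few counts to be tested.

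Of 6 other hyaluronan receptors 3 had enough counts, and 0 passed with 18 libraries by edgeR with either siRNA. Of all genes, 2.04% passed with siRagC1 and 3.23% with siRagC2. At an unadjusted p under 0.05 there was 1 of the 3 receptors with siRagC1, LAYN, which DESeq2 also called, and 0 with siRagC2. LAYN, which encodes layilin, averaged 47.7 ± 2.29 CPM with siRagC1 and 52.6 ± 3.10 with siRagC2, against 52.6 ± 1.98 with siCtrl (SD, n = 6 each), with log2 differences of -0.14 ± 0.04 (adjusted p = 0.0909) and 0.00 ± 0.04 (adjusted p = 0.997). Without replicate 6 LAYN fell with siRagC1 (-0.15 ± 0.04, adjusted p = 0.0322). TLR4, which senses hyaluronan fragments, had -0.01 ± 0.11 with siRagC1 and -0.07 ± 0.11 with siRagC2 (adjusted p = 0.981 and 0.800). LYVE1, the lymphatic receptor, had 0 counts in all 18 libraries, where 3 counts, the limit a count of 0 allows, correspond to 0.0414 to 0.201 CPM per library.

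Of 16 genes listed for proteins of the hyaluronan matrix, 4 were expressed enough to be tested, and PTX3 fell with siRagC2. PTX3, a pentraxin of the hyaluronan matrix, averaged 124 ± 10.8 CPM with siRagC1 and 114 ± 7.83 with siRagC2, against 133 ± 13.96 with siCtrl (SD, n = 6 each). The log2 difference was -0.23 ± 0.05 with siRagC2 (adjusted p = 0.00965) and -0.11 ± 0.05 with siRagC1 (adjusted p = 0.236), and without replicate 6 it was -0.25 ± 0.04 and -0.09 ± 0.04 (adjusted p = 0.00174 and 0.230). With siRagC2 this was 1 of 4 called, against 3.23% of all genes, and with siRagC1 0 of 4, against 2.04%. With siRagC1 there was 1 of 4 at an unadjusted p under 0.05 and 0 by DESeq2. The call was ended by no single library, but by leaving out replicate number 1 (adjusted p = 0.0791), and it was lost without the series term, in D1221 alone and in D1221 without its number 6 (0.157 to 0.316).

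Of 15 partners, sheddases and splicing factors of CD44, 13 were tested and 0 passed with 18 libraries by edgeR. Of all genes, 2.04% passed with siRagC1 and 3.23% with siRagC2. At an unadjusted p under 0.05 there were 3 of the 13 with siRagC1 and 4 with siRagC2, against 2613 and 2833 of 15307 genes. DESeq2 called 0 of the 13 with siRagC1 and 2 with siRagC2, MSN and ADAM17. MSN, moesin, which ties CD44 to actin, averaged 1550 ± 38.5 CPM with siRagC1 and 1483 ± 33.7 with siRagC2, against 1589 ± 60.1 with siCtrl, with -0.04 ± 0.03 and -0.10 ± 0.03 (adjusted p = 0.602 and 0.0846). MMP14, a membrane protease that sheds CD44, had 0.17 ± 0.08 with siRagC1 and 0.15 ± 0.08 with siRagC2 (adjusted p = 0.294 and 0.355). Without replicate 6, 2 of 13 were higher with siRagC1, against 4.15% of all genes, and 0 lower, against 3.46%. With siRagC2, 2 were higher, against 3.48%, and 1, MSN (-0.11 ± 0.03, adjusted p = 0.0345), lower, against 3.17%.

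The others called without replicate 6 were chosen for naming after their values were seen. With siRagC1 they were IQGAP1, a scaffold that binds CD44 (0.15 ± 0.04, adjusted p = 0.0210; over 18 libraries 0.11 ± 0.05, adjusted p = 0.227), and SPP1, osteopontin, a CD44 ligand (1.21 ± 0.31, adjusted p = 0.0208). With siRagC2 they were ADAM17, a sheddase (0.25 ± 0.05, adjusted p = 0.00525), and ANK3, an ankyrin that binds CD44 (0.41 ± 0.10, adjusted p = 0.0148), which over 18 libraries had 0.21 ± 0.06 and 0.32 ± 0.11 (adjusted p = 0.0670 and 0.0959). SPP1 was scarce, at 0.464 ± 0.175 CPM with siRagC1 and 0.486 ± 0.198 with siRagC2, against 0.184 ± 0.0893 with siCtrl, and had 1 to 32 counts per library. Over 18 libraries its log2 differences were 1.21 ± 0.35 and 1.24 ± 0.36 (adjusted p = 0.0746 and 0.0597).

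**Figure D4:**
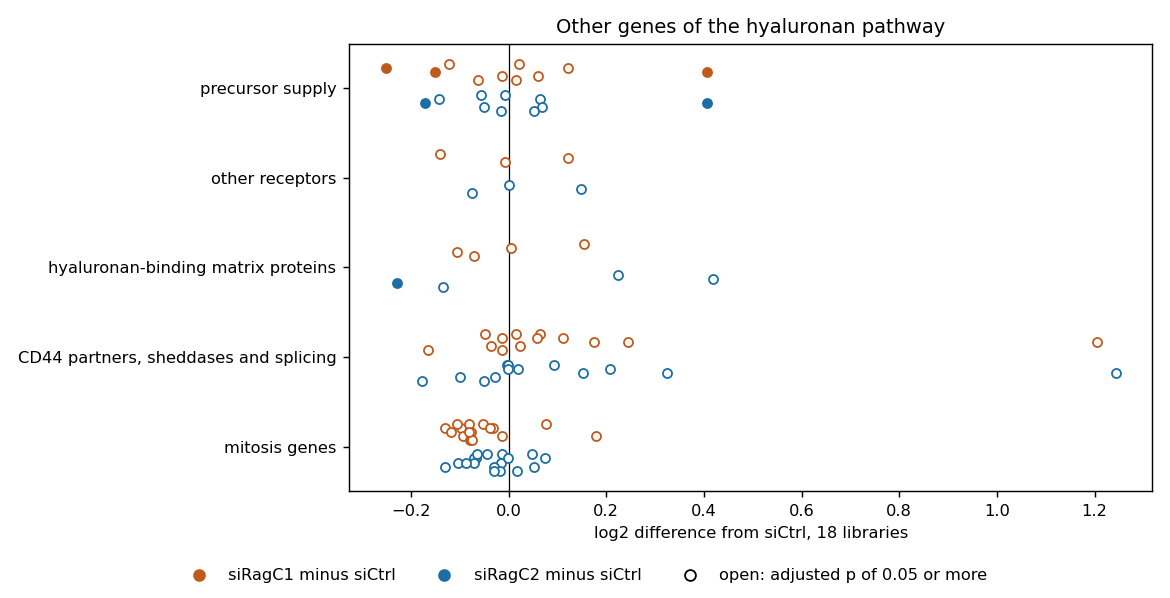
Fitted log2 difference from siCtrl (horizontal axis, 18 libraries) of each tested gene in 5 lists around hyaluronan, with siRagC1 in orange and siRagC2 in blue; filled points have an edgeR adjusted p under 0.05. Called genes lie in the precursor and matrix lists, and the 18 mitosis genes have medians of -0.08 with siRagC1 and -0.03 with siRagC2.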

How the data were processed

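Libraries were made from 500 ng of total RNA, 72 hours after siRNA lipofection, per the labels' protocols. For the 18 libraries the authors deposited 1 table of whole-number raw counts by gene. The submitters' processing notes name cutadapt 0.6.2, STAR 2.7.6a and the build GRCh37/hg19. How reads were counted, with or without strand and on which annotation, is not given in the sources used, so overlapping genes may share reads. Groups and replicate numbers came from the labels and code series from the library codes, whose meaning no source used here states. Symbols were matched to 51996 of 57820 identifiers, and 101 of 102 listed symbols were found (PECAM1 was not).

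The quasi-likelihood F test of edgeR 4.0.16, in its robust form, was run in R 4.3.3 on all 18 libraries, with terms for code series and group, TMM factors and the filterByExpr filter by group. Of the genes, 15307 were kept, and p was adjusted over all of them by Benjamini-Hochberg with a threshold of 0.05. HAS2 and the comparison between the siRNAs carry no test. CPM used TMM-scaled totals, and similarity was computed on log2 CPM with a prior count of 2. Before use, the fit was checked on simulated counts with known changes. The range of depth, 14.8 to 71.6 M counts, leaves genes such as HYAL1 with few reads. The Poisson interval of a count covers counting error only, and intervals of log2 differences come from the fit and include the spread between libraries.

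The members and the gene lists were chosen with earlier results of these data known. Genes named are the 9 members, RRAGC, up to 4 genes of each list past the threshold in either comparison, otherwise the 2 of the list with the highest mean CPM, and the 3 genes most like HAS2, CD44 and HMMR; any other gene is marked where it appears. Same-numbered libraries counted as pairs where every pair of deviations from the group means correlated above 0.1, which held for siRagC2 with siCtrl (0.116 to 0.492, 6 of 6 pairs) and for siRagC1 with siRagC2 (0.221 to 0.582, 6 of 6), which carry no test here, but not for siRagC1 with siCtrl (0.0765 to 0.610, 5 of 6). The series mean was not removed from these deviations, so a shift between the series alone could raise the correlations. Pairing beyond the series was not tested. Alternatives were RLE factors, DESeq2 1.42.0, no filter, at least 5 CPM in 6 or more libraries, the replicate block, no series term, each series alone, and each number and each library left out. Chosen after seeing the data were leaving out both siRagC libraries numbered 6, and D1221 without its number 6. Each number was left out in turn, but number 6 was singled out for the fit shown beside the main fit after its values were seen. Promoter windows came from RefSeq and exon lengths and overlaps from GENCODE 29, both GRCh38, and gene coordinates in the files' own build were not used here. Protein and hyaluronan itself were not analysed here, and 1 gene that the naming rule picks is not reported here.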

Additional observations from a re-analysis of the deposited data

Results flagged for a closer look

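CEMIP in siRagC2 replicate 6 had 27.3 CPM and lay far below the other 5 siRagC2 libraries, the nearest of which had 40.3 CPM. RRAGC in siCtrl replicate 1 had 67.9 CPM and lay far above the other 5 siCtrl libraries, the nearest of which had 62.2 CPM. Both were picked by the gap to the nearest library, 0.727 and 0.790 of the whole range of the group, which for 6 samples is past the 95% critical value of Dixon's test, 0.625. Of the 30 groups of 6 that were looked at, the 10 genes in 3 groups each, 2 were picked, and about 1 in 20 is picked by chance.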

How the results depend on the processing

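The HAS2 difference of siRagC1 minus siRagC2, by which the genes were chosen, was 0.37 over 18 libraries and between 0.29 and 0.51 with a number or library left out, which describes the same libraries and is no support for it. With siRagC1, 0 members were called under every alternative. With siRagC2, where 1 member was called, the count was 4 with no filter, 2 by DESeq2, 3 with the replicate block, 0 without the series term, 0 in D1221 alone, 4 without the siRagC libraries numbered 6 and 0 in D1221 without its number 6; with a number or library left out it ran from 0 to 4. Leaving out siRagC2 replicate 6 gave 4. All genes called with siRagC1 numbered 312, against 799 with no filter, 778 by DESeq2, 864 with the replicate block, 7 without the series term, 554 in D1103, 1 in D1221, 852 without the siRagC libraries numbered 6, 22 in D1221 without its number 6, and 34 to 1178 with a number or library left out. With siRagC2 they numbered 495, against 843, 1005, 986, 19, 1149, 1, 751, 18 and 42 to 1028 under the same settings. Single libraries moved these counts by over 1.5 times: with siRagC1 any siRagC1 library or siCtrl replicate 1, 2 or 5 (78 to 893), and with siRagC2 siRagC2 replicate 1 or 4 or siCtrl replicate 1 or 2 (197 to 290). The fits of 1 series hold fewer samples by construction; for the other settings the cause was not tested. RLE factors and the stricter filter left every count within 1.5 times. Set against siCtrl, siRagC2 met the rule for pairs, which did not separate number from code series, and siRagC1 did not. The block of siRagC1 with siCtrl therefore rests on the number only, and it left 0 members called. HYAL1 and SPP1 had as few as 4 and 1 counts in a library, and how far depth or the spread between libraries set their p was not tested.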
